A study of Caenorhabditis elegans with 4 samples.

Results

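The regions described here are closely neighbouring GEI-11 binding regions in fed first-stage (L1) larvae of Caenorhabditis elegans. GEI-11 is also known as SNPC-4, the gene snpc-4, a DNA-binding subunit of the small nuclear RNA activating complex (SNAPc). Members were chosen by the width and spacing of their regions in the combined list. A member was narrower than 600 bp and lay no more than 500 bp from the region before or after it on its chromosome. This rule gave 478 of 5999 combined regions. They formed 289 neighbouring pairs, of which 207 joined a pair of members and 82 joined a member to a wide region of 600 bp or more. The remaining combined regions were 4851 lone regions narrower than 600 bp and 670 wide regions. The rule used the width and position of the called regions, so strength, width and calling of the members are given as a description, with no test.

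Hermaphrodites gave 2 ChIP and 2 input samples, numbered as replicates 1 and 2, and each ChIP replicate has a region list of its own besides the combined list. All 4 samples came from strain OP179, which carries unc-119(ed3) III and the bombarded transgene wgIs179, holding unc-119(+) and gei-11::TY1::EGFP::3xFLAG. The larvae were grown with food at 20 °C, and chromatin was collected with antibodies against GFP, so binding by the untagged protein and binding in single tissues were not measured. No strain without the tag is among the samples, and the inputs carry the same transgene. The labels do not say that the replicates came from separate cultures.

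SNAPc binds the proximal sequence element upstream of small nuclear RNA genes and brings RNA polymerase II or III to them. Its large subunit contacts DNA through Myb-type repeats. In C. elegans this subunit also occupies the chromosome IV regions that hold genes of piRNAs, the small RNAs that guard the germline. What is annotated at each position below, and its sequence, are not analysed here, because the gene table at hand belongs to a later build than the WormBase WS220 positions of the lists.

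No region of any list lay closer to its neighbour than 200 bp. The smallest gap was 200 bp in the combined list, 201 bp in replicate 1 and 200 bp in replicate 2. Sites closer than that, where present, would not appear as pairs. Beyond this limit short gaps were the more frequent ones in the combined list and replicate 1. In the combined list 136 gaps measured 200 to 299 bp, 103 measured 300 to 399 bp and 83 measured 400 to 499 bp. From 1000 to 1399 bp each 100 bp bin held 56 to 69 gaps. In replicate 1 the 3 bins below 500 bp held 49, 29 and 20 gaps, and in replicate 2 they held 49, 28 and 32. In each of the 3 lists the bin from 200 to 299 bp held more gaps than any other bin below 1400 bp. The decline was not a smooth one, since the bins from 500 to 799 bp held 36 to 41 gaps each in replicate 2.

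**Figure D1:**
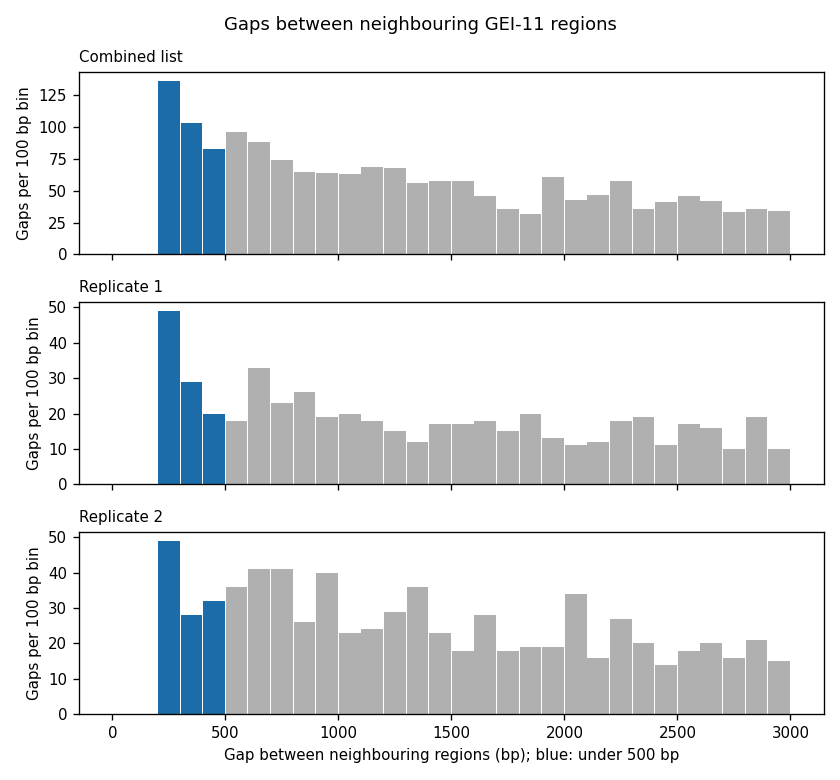
Number of gaps between neighbouring regions (vertical axis, gaps per 100 bp bin) by gap length in bp (horizontal axis), for the combined list and replicates 1 and 2; blue bars are gaps under 500 bp and grey bars longer ones. The bins below 200 bp are empty in all 3 lists, and the bin from 200 bp holds 136, 49 and 49 gaps.

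The gap within the 289 pairs ran from 202 to 500 bp, with a median of 320 bp and quartiles of 258 and 404 bp. The centres of the partners lay a median of 676 bp apart, or 615 bp where both partners were members and 928 bp where 1 partner was wide. Members had a median width of 299 bp (quartiles 170 and 403 bp), against 292 bp for lone regions. Very narrow regions were part of the set. There were 56 members under 50 bp (11.7%, 95% exact interval 8.97 to 14.9), against 7.3% of all combined regions and 7.87% of lone regions. At the width limit, the widest members measured 595, 592 and 589 bp, with −log10 q of 6.26, 10.3 and 3.92. The nearest wide regions with a close neighbour measured 600, 606 and 610 bp, with −log10 q of 6.39, 5.28 and 5.36. At the gap limit, the members with the longest gaps had gaps of 500, 500 and 497 bp and −log10 q of 3.21, 3.91 and 2.28. The first narrow regions beyond it had gaps of 501, 502 and 504 bp and −log10 q of 5.70, 2.24 and 2.04. Values on both sides of each limit overlapped.

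Members were weaker at the median than lone and wide regions, and 8 of them were among the strongest 100 of the list. The q value, the false discovery estimate that the authors' peak caller gave each region, is used here as −log10 q, which is larger for stronger regions. The median was 3.42 for members, with quartiles of 2.48 and 5.77 and a maximum of 142. It was 3.84 for lone regions and 11.8 for wide regions. A q value above 0.001 was held by 204 members (42.7%), against 35.8% of lone regions. A q of 1e-10 or less was held by 62 members (13.0%, interval 10.1 to 16.3), against 19.7% of all combined regions and 15.2% of lone regions. Of the strongest 100 combined regions 8 were members, of the strongest 500 there were 21, and of the strongest 1000 there were 51. Over the whole combined list the share of members was 7.97%. The width limit keeps the wide regions, which were the stronger ones, out of the members.

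Within each pair the partner with the larger −log10 q is called the stronger, so this sorting alone sets the partners apart. Whether partners differ more than unrelated regions do was not tested. Over all 289 pairs the stronger partner had a median −log10 q of 6.35 and the weaker one 2.75. The weaker partner had a q above 0.001 in 171 pairs (59.2%, interval 53.3 to 64.9). The partners differed by 1 unit of −log10 q or less in 80 pairs and by more than 10 units in 64. Both partners reached a q of 1e-10 in 12 pairs (4.15%, interval 2.16 to 7.14). Between left and right partner, Spearman's rho was 0.122 over the 207 pairs of members (Pearson's r 0.504). Over the 82 pairs with a wide partner it was −0.378 (Pearson's r −0.0807). Each of these 82 pairs sets a wide region, mostly the stronger, against a member on either side. Such an arrangement can give a negative rho, and its part in this value was not tested. Over all 289 pairs rho was 0.0210, which pools both kinds. The points share their libraries, and the correlations are descriptions only. The left partner was the stronger in 132 pairs (45.7%, interval 39.8 to 51.6).

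Pairs with a wide partner were the more unequal ones. In 73 of these 82 pairs (89.0%, interval 80.2 to 94.9) the wide partner was the stronger, with a median −log10 q of 11.6 against 3.06 for the member. The median widths were 822 and 331 bp. In the 207 pairs of members the stronger partner had a median −log10 q of 5.19 and the weaker one 2.68. The stronger partner was also the wider in 158 of them (76.3%, interval 69.9 to 82.0), with median widths of 354 and 195 bp, and 3 pairs had equal widths. Width and strength come from the same call, and wide regions were the stronger ones throughout the list.

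**Figure D2:**
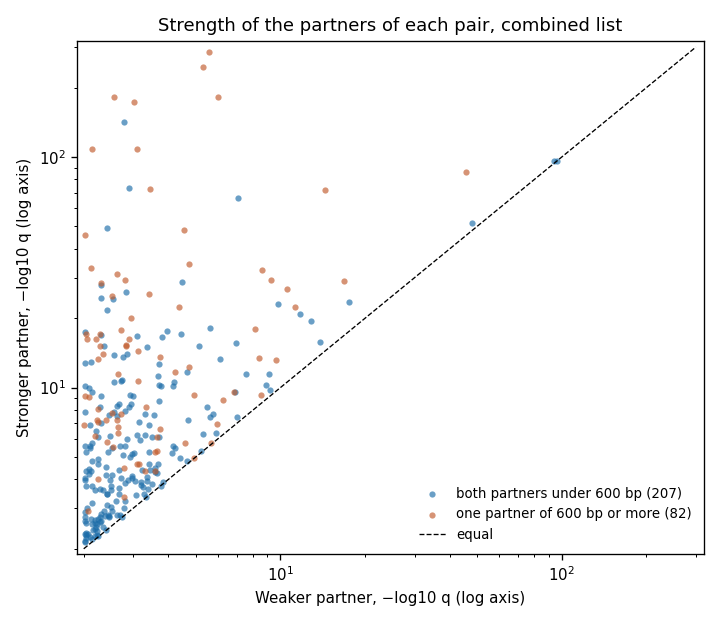
Each point is a pair of the combined list, with −log10 q of the weaker partner on the horizontal axis and of the stronger partner on the vertical axis, both log axes; blue pairs join regions under 600 bp and orange pairs include a region of 600 bp or more. Few points lie far right along the dashed line of equal strength, and the weaker partner has a median of 2.75.

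The strongest pairs of members lay side by side on chromosome III. Positions are given in WS220, counted from 1. Chromosome III 7140207 to 7140761, 7141029 to 7141554 and 7141949 to 7142474 followed each other with gaps of 267 and 394 bp. Their widths were 555, 526 and 526 bp and their −log10 q was 96.4, 96.2 and 93.7, ranks 67, 70 and 72 of the combined list. Replicate 1 called them as separate regions, with −log10 q of 47.9, 46.1 and 44.0. Replicate 2 also called them as separate regions, with 75.7, 70.7 and 64.1. The 3 regions kept one order of strength in all 3 lists, with the widest spread in replicate 2. Together the 3 regions spanned 2268 bp.

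The next pair lay on chromosome II, 13521008 to 13521419 and 13521792 to 13522180, with a gap of 372 bp. Its left and right −log10 q were 47.9 and 51.6 combined, 16.1 and 19.2 for replicate 1, and 34.2 and 34.1 for replicate 2. The right partner was the higher in the combined list and replicate 1, and in replicate 2 the values were nearly equal. On chromosome X, 16565717 to 16566036 and 16566324 to 16566645 lay 287 bp apart. Their −log10 q was 17.6 and 23.5 combined, 6.56 and 10.8 for replicate 1, and 11.2 and 12.9 for replicate 2. Here the right partner was the higher in all 3 lists. On chromosome I, 12285526 to 12285874 and 12286362 to 12286635 had 13.9 and 15.7 combined, 3.16 and 4.79 for replicate 1, and 8.49 and 11.5 for replicate 2. The last of these 6 pairs, chromosome I 2321823 to 2322163 and 2322451 to 2323032, had 12.9 and 19.4 combined, 3.13 and 6.87 for replicate 1, and 8.42 and 10.7 for replicate 2. All 6 pairs were called as separate regions in both replicates.

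The most unequal pairs each placed a weak member beside one of the strongest GEI-11 regions. The strongest region of the combined list, chromosome III 11090082 to 11091142, had a −log10 q of 285. Its member neighbour, 11091563 to 11091818, lay 420 bp away with 5.56. Replicate 2 called that member with 3.47, and replicate 1 did not call it. On chromosome I, member 2083761 to 2083877 (5.30) lay 364 bp before region 2084242 to 2085774 (247). Replicate 1 called this member, with 2.84, and replicate 2 did not. Chromosome II 5702183 to 5702224, a member of 42 bp with 2.56, lay 216 bp after a region with 182, and no replicate called it. Chromosome I 2687536 to 2687880 (6.0) lay 472 bp before a region with 183, and replicate 2 alone called it, with 2.45. Chromosome III 4413110 to 4413353 (3.02) lay 371 bp before a region with 173, and neither replicate called it. None of these 5 members was called in both replicates, while each strong neighbour was.

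The strongest single member showed the same inequality within a pair of members. Chromosome III 4426754 to 4427238, rank 46, had a −log10 q of 142, and the replicates gave 89.8 and 118. Its partner 4427553 to 4427608, 314 bp away, measured 56 bp, had 2.78 and met no replicate region. In contrast, chromosome V 11175551 to 11176052 (86.5, and 38.3 and 66.2 in the replicates) lay 267 bp from a region of 617 bp with 45.6 that both replicates called. Chromosome X 14637333 to 14637783 (66.7, and 26.6 and 44.4 in the replicates) lay 449 bp from a member with 7.10 that both replicates called. These 3 members were chosen after their values were seen.

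The 5 pairs with the shortest gaps, 202 to 204 bp, were weak or unequal. The closest, chromosome II 13787542 to 13787652 and 13787855 to 13787933, had −log10 q of 3.76 and 2.49. Replicate 2 called the right partner alone, with 2.36, and replicate 1 called neither. Chromosome I 9332690 to 9332908 and 9333112 to 9333382 had 2.08 and 2.31, and no replicate called either partner. Chromosome I 8529437 to 8529838 and 8530042 to 8530310 had 2.25 and 4.67, and replicate 2 held 1 region of 783 bp across both, with 3.72. On chromosome III, member 6279379 to 6279569 (2.25) lay 203 bp before a wide region with 13.3 that both replicates called, and the member was called in neither. Chromosome III 11378968 to 11379167 (2.63) lay 204 bp after a wide region with 31.1, and replicate 2 held 1 region of 1135 bp across both, with 18.3. These 5 pairs do not stand for short gaps in general. By a gap limit of 250 bp, members had a median −log10 q of 3.35, against 3.42 by the limit of 500 bp. The shares met in both replicates were 28.2% and 27.6%.

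Members were called again in the replicates according to their strength. A combined region was counted as met when it shared at least 1 bp with a region of a replicate list. Of the 478 members 132 met a region in both replicates (27.6%, interval 23.7 to 31.9), against 38.8% of all combined regions and 34.5% of lone regions (interval 33.2 to 35.9). Replicate 1 alone met 49 members and replicate 2 alone met 96. The remaining 201 (42.1%, interval 37.6 to 46.6) met none, against 33.2% of all combined regions and 36.0% of lone regions. Within bands of strength, members and lone regions gave overlapping intervals. At −log10 q from 3 to 5, 12 of 128 members (9.38%, interval 4.94 to 15.8) and 10.5% of lone regions (8.82 to 12.3) were met in both. From 5 to 10 it was 58 of 84 members (69.0%, 58.0 to 78.7) and 72.4% of lone regions. At 10 or more it was all 62 members and 99.7% of lone regions. From 2 to 3 it was 0 of 204 members, which allows a share of up to 1.79%, and 0 of 1736 lone regions. The combined list may hold the reads of both replicates, so being met there is no independent support, and the differences were not tested.

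**Figure D3:**
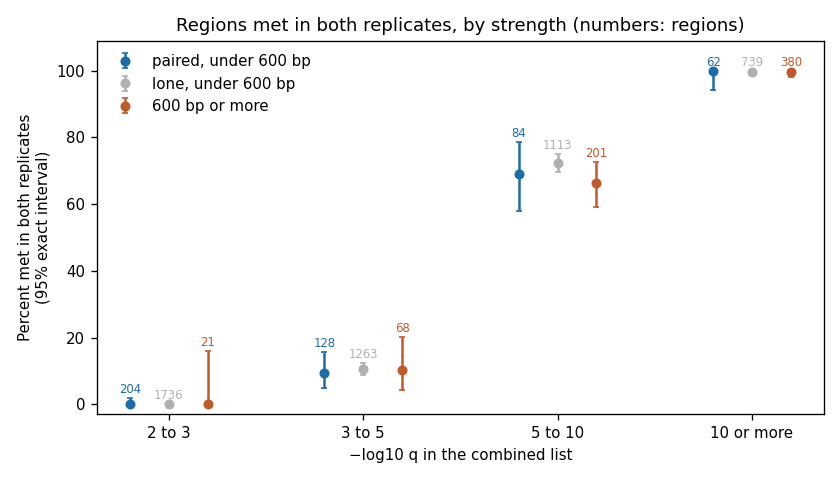
Percent of combined regions that met a region in both replicates (vertical axis, with 95% exact intervals), by −log10 q in the combined list (horizontal axis), for paired regions under 600 bp, lone regions under 600 bp and regions of 600 bp or more; numbers beside the points are regions. The intervals of paired and lone regions overlap in each of the 4 bands, from 0 of 204 paired regions in the lowest to all 62 in the highest.

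For the 132 members met in both replicates, the median −log10 q was 3.89 by replicate 1 and 5.43 by replicate 2. Replicate 2 had the higher value in 100 of them (75.8%). Across these members the values of the replicates had a Spearman rho of 0.714 and a Pearson r of 0.978, given as a description. The depth of both libraries is unknown, and since depth affects q values these differences are no measure of occupancy. Members under 50 bp stood at the low end, with 0 of 56 met in both replicates, 4 met in each replicate alone and 48 met in neither (85.7%). Lone regions under 50 bp were alike, with 0 of 382 met in both and 85.3% in neither. Of the members of 50 bp or more, 132 of 422 were met in both (31.3%, interval 26.9 to 35.9). The strongest members met in neither replicate were weak ones. They were chromosome I 8759729 to 8760145, with a −log10 q of 4.54, chromosome I 12043902 to 12044371, with 4.26, and chromosome III 8886281 to 8886567, with 3.98. The fourth was the left partner of the closest pair, on chromosome II, with 3.76.

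Pairs of the combined list were often reduced to their stronger partner in a replicate, and were rarely fused. In replicate 1, 57 of 289 pairs had a separate region for each partner (19.7%, interval 15.3 to 24.8), 141 had a region for a single partner, 90 had none, and 1 was spanned by 1 region. In replicate 2 the numbers were 73 (25.3%, interval 20.4 to 30.7), 153, 59 and 4. Separate regions in both replicates were found for 36 pairs (12.5%, interval 8.88 to 16.8), and in at least 1 replicate for 94 (32.5%). No pair was spanned in both replicates, which allows a share of up to 1.27%, and 5 were spanned in 1 replicate. All 5 had gaps of 200 to 299 bp. Where a replicate held a single partner, it was mostly the one with the smaller combined q value. This held in 133 of 141 pairs in replicate 1 (94.3%, interval 89.1 to 97.5). In replicate 2 it held in 142 of 153 (92.8%, interval 87.5 to 96.4). The combined q values may rest on the reads of the same replicates, so these shares are no independent support.

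Pairs of members and pairs with a wide partner followed the same pattern at different levels. Of the 207 pairs of members, 35 were separate in replicate 1, 46 in replicate 2 and 21 in both (10.1%, interval 6.39 to 15.1). Of the 82 pairs with a wide partner the numbers were 22, 27 and 15 (18.3%, interval 10.6 to 28.4). Neither partner was called in any replicate for 29 pairs of members and for 1 pair with a wide partner. The pairs of members that were separate in replicate 1 had a median combined −log10 q of 11.4 and 5.50 for the stronger and weaker partner. Those with a single partner there had 6.68 and 2.72, and those with none had 3.02 and 2.28. In replicate 2 these medians were 9.66 and 5.19, 5.94 and 2.57, and 2.96 and 2.33. The pairs seen as separate in a replicate were the ones whose weaker partner was stronger in the combined list. Since both lists may hold the same reads, this is a description and no independent support.

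**Figure D4:**
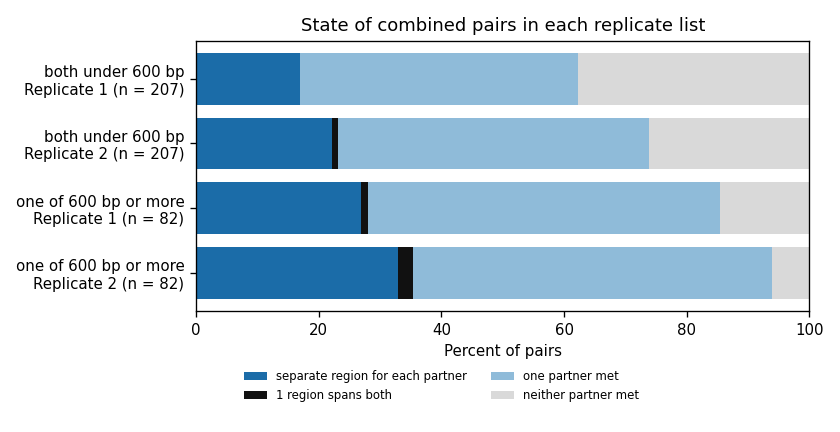
Percent of combined pairs (horizontal axis) in each state in the lists of replicates 1 and 2, for the 207 pairs with both partners under 600 bp and the 82 pairs with a wide partner. Black bars, pairs spanned by 1 replicate region, are nearly absent, and pairs with a separate region for each partner make up 16.9% to 32.9%.

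Where both replicates separated the partners, the order of strength mostly held. The same partner was the stronger in both replicates in 30 of 36 pairs (83.3%, interval 67.2 to 93.6), and in 17 of 21 pairs of members (81.0%, interval 58.1 to 94.6). The order of the combined list was found in 48 of 57 pairs separated in replicate 1 and in 60 of 73 separated in replicate 2. The combined list may hold these same reads, so its order is not an independent one. Gaps were compared for the same pairs. The pairs were chosen by a combined gap of 500 bp or less, while gaps in the replicates had no limit. This choice can favour wider gaps there, and its part in the difference was not tested. The 57 pairs separated in replicate 1 had a median gap of 401 bp there and 295 bp in the combined list, and the gap was wider in 51 of them. In replicate 2 the medians were 442 and 331 bp, with a wider gap in 64 of 73. The gap exceeded 500 bp in 18 pairs in replicate 1 and 24 in replicate 2, so these pairs would not meet the spacing rule there.

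Read from the replicates, pairs were often fused in the combined list. The same rule gave 146 members in 90 pairs in replicate 1 (4.83% of its 3021 regions) and 174 members in 103 pairs in replicate 2 (4.67% of 3722), against 7.97% of the combined regions. A single combined region spanned both partners in 37 of the 90 pairs of replicate 1 (41.1%, interval 30.8 to 52.0) and in 38 of the 103 of replicate 2 (36.9%, interval 27.6 to 47.0). The partners remained separate in 42 and 56 pairs, and a single partner was found in 11 and 9. Of the separate pairs, 41 and 55 also lay within 500 bp of each other in the combined list. Against the other replicate, 33 of the 90 pairs of replicate 1 were separate and 15 were spanned. Of the 103 pairs of replicate 2, 39 were separate and 12 were spanned in replicate 1.

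Most members stood in simple pairs, with 423 in runs of 2 neighbouring regions and 55 in the 25 runs of 3 or more. The longest run, chromosome I 5372470 to 5380325, joined 6 regions over 7856 bp, of which 5 were wide and 1 was a member (−log10 q 3.63). The next, chromosome V 18715555 to 18724779, joined 5 regions over 9225 bp, also with a single member, of 52 bp and 2.78. These runs were chains of wide regions with a member in or beside them. The longest run of members alone was chromosome V 14847307 to 14850057, with 4 members. Their −log10 q was 6.22, 3.31, 7.69 and 5.78 in order of position. Replicate 1 called the first and the third, with 2.44 and 3.68, and replicate 2 called all but the second, with 2.51, 3.55 and 3.13. Chromosome X 2970366 to 2972757 also joined 4 regions. Its wide region of 648 bp (7.24) was called in both replicates, with 3.64 and 4.10, and its 3 members (2.57, 2.23 and 2.41) in neither.

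Chromosome II held the largest share of paired regions in each list. In the combined list 110 of its 985 regions were members (11.2%, interval 9.27 to 13.3). Chromosome III followed with 97 (9.36%, interval 7.66 to 11.3), then V with 99 (9.01%, 7.38 to 10.9), IV with 74 (7.12%, 5.63 to 8.86), X with 54 (5.45%, 4.12 to 7.05) and I with 44 (5.18%, 3.79 to 6.90). The interval of II overlaps those of III and V and lies above those of IV, X and I. In replicate 1 the share on chromosome II was 6.76% (4.87 to 9.09) and on chromosome I 2.30% (0.928 to 4.67). IV, V, III and X had 5.79%, 5.25%, 3.84% and 3.59% there, so the order after II was not that of the combined list. Their intervals overlap that of II, and only that of I lies below it. In replicate 2 the share was 8.42% (6.42 to 10.8) on II, 2.69% (1.35 to 4.76) on I and 2.54% (1.46 to 4.09) on X. III, IV and V had 4.36%, 4.84% and 4.33% there. Spacing depends on how dense the regions are, and combined density was 75.2 regions per Mb on III, 64.5 on II, 59.4 on IV, 56.3 on I, 56.0 on X and 52.6 on V. V was the least dense and III the densest, and the part of density in the shares was not tested. The share of members met in both replicates was 38.2% on II (29.1 to 47.9) and ranged from 18.2% to 29.9% on the other chromosomes. The interval of II overlaps that of each other chromosome, whose upper ends ran from 29.5 on V to 43.6 on X. Of all combined regions 38.8% were met in both. That share was not counted by chromosome, so it is not known whether members on II differ from other regions there. Members on II also had the highest median −log10 q, 4.13, against 2.81 to 3.52 on the others. No test was made, because position chose the members.

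**Figure D5:**
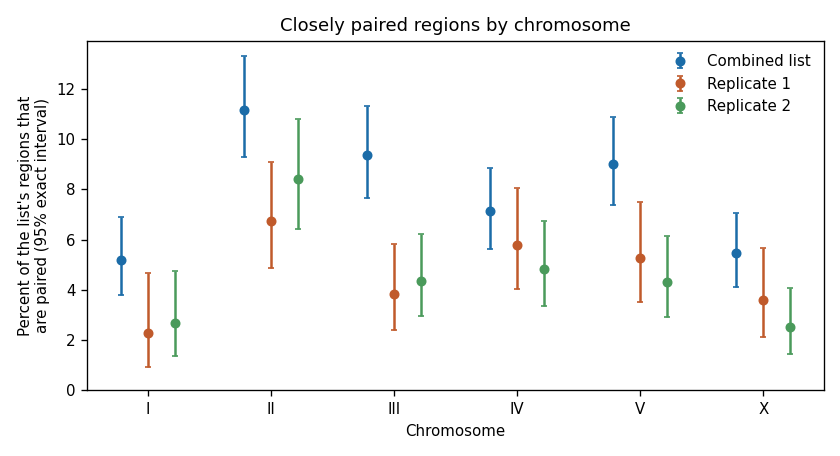
Percent of regions that are paired by the rule (vertical axis, with 95% exact intervals) on each chromosome (horizontal axis), for the combined list and for the rule applied to each replicate list. Chromosome II is highest in all 3 lists, at 11.2%, 6.76% and 8.42%.

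Over 102 windows of 1 Mb on all chromosomes the number of members and the number of regions had a Spearman rho of 0.625, a description in which both counts come from one list. The median was 4 members per window, and 16 windows held none. Chromosome II from 13000001 to 14000000 held the most, 14 of 85 regions, followed by chromosome III from 7000001 to 8000000, with 13 of 80. Chromosome X from 15000001 to 16000000 held 12 of 121 regions and chromosome V from 20000001 to 21000000 held 12 of 63. In the chromosome IV domains of the piRNA genes, taken as 4.5 to 7 Mb and 14 to 17 Mb, 27 of 339 regions were members (7.96%, interval 5.31 to 11.4), against 47 of 700 (6.71%, 4.98 to 8.83) outside them. With each chromosome divided into 3 equal parts, the right part of X was dense, at 75.7 regions per Mb, and there 27 of 447 were members (6.04%, 4.02 to 8.67), against 9 of 225 (4.0%, 1.85 to 7.46) in the centre. On chromosome V the right part, with 48.6 regions per Mb, held 36 members of 339 regions (10.6%, 7.55 to 14.4), and the left part, with 49.4 per Mb, held 23 of 344 (6.69%, 4.29 to 9.86). In the right part of chromosome II it was 47 of 384 (12.2%, 9.13 to 15.9). Of these 47 members, with a median −log10 q of 4.68, 21 were met in both replicates. In the centre of chromosome I none of 19 members was met in both replicates, which allows a share of up to 17.6%. These 19 were weak, with a median of 2.65 against 3.42 for all members, and theirs was the lowest share of all the parts. The share of all combined regions met in both was not counted by part, so these counts describe members only.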

How the data were processed

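GEI-11::GFP ChIP-seq regions from fed L1 larvae were analysed as 3 lists, 1 per ChIP replicate and 1 combined. Per the file headers, regions were called by PeakSeq and positions were carried over to WormBase WS220 from an earlier build. The deposited measurement is a q value (a p-value adjusted by the authors' caller) per region, all below 0.01, and −log10 q was computed from it. The sources used here do not give how the lists were combined, the aligner, the versions or any use of the inputs. Depth is unknown. Intervals are 95% exact Clopper-Pearson intervals, which treat regions as independent and cover counting error only.

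Rows were sorted by start, and gaps are the bases between neighbouring rows. Replicate regions matched a combined region by an overlap of at least 1 bp, and the highest −log10 q was kept where several matched. Scripts ran in Python 3.11.15 with pandas 2.3.3 and scipy 1.17.1 and recovered the pairs planted in simulated data. The members and lists were chosen with earlier results of these data known. Named pairs were the 6 pairs of members with the strongest weaker partner, the 5 shortest gaps, the 5 largest differences, the 4 longest runs and the 4 strongest unmet members. A further set, pairs of members spanned in both replicates, was empty. Alternatives changed the limits of the rule, the rows kept, the overlap and the list. No genome of WS220 was used, so sequence and gene annotation are not analysed here.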

Additional observations from a re-analysis of the deposited data

How the results depend on the processing

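No paired analysis was possible because no result comes from a test and neither input has a region list here. Of 118 alternative values, 54 stayed within the interval of the reported value, or within 1.5 times a reported count, and 64 moved beyond it. Under a changed gap or width limit, counts and shares of members move by construction. A gap limit of 250 bp gave 110 members in 65 pairs and one of 1000 bp gave 986 in 644. Pairs with separate regions in a replicate were then 26.2% and 38.4%, spanned pairs were 7.69% at 250 bp, and the same partner was stronger in both replicates in 100% of pairs at 250 bp (interval 63.1 to 100). On chromosomes I, II, III, IV, V and X the share of members was 1.41%, 2.74%, 1.93%, 1.35%, 2.09% and 1.41% at 250 bp, and 12.1%, 19.1%, 19.6%, 16.7%, 17% and 13.3% at 1000 bp, where III and not II was highest. With no width limit 38.2% of members were met in both replicates and 34.3% in neither, the median −log10 q was 4.20, and the shares on I, II, III and V were 8.24%, 13.5%, 11.7% and 12%. A width limit of 400 bp gave 17.2%, 51.3%, 2.88, 26.2% of pairs separate, and 3.65%, 7.61%, 7.14%, 6.92% and 4.04% on I, II, III, V and X. Without regions under 50 bp, 36.8% were met in neither, 38.6% of pairs were separate, and III and V had 7.34% and 6.97%. Only regions of q 0.001 or less gave 187 members in 118 pairs, 44.4% met in both and 15.0% in neither, 69.5% of pairs separate, a median of 4.96, and 2.71%, 8.86%, 4.68%, 4.20%, 4.08% and 2.58% on I, II, III, IV, V and X. Matching centres within 200 bp left 0% of pairs spanned. The replicate lists gave 146 members in 90 pairs and 174 in 103. With either replicate alone, 37.9% to 47.7% of members were met and 52.3% to 62.1% were not, 19.7% to 25.3% of pairs were separate and 0.346% to 1.38% were spanned. Beyond that, the cause of a move was not tested. The limit that depth sets on weak partners was not measured, since no list gives a depth.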

Other observations

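Some combined regions would be paired if regions called only in the replicates were counted, an extension chosen after the data were seen. The replicates held 324 regions that met no combined region, counting overlapping ones once. With these added to the combined list, 33 further combined regions met the rule, 43 added regions did, and no member was lost. Within 500 bp of a combined region lay 21 such regions of replicate 1 and 27 of replicate 2. Most of these were weak, with a median −log10 q of 2.20 and 2.27. The strength of the others was not summarised. Strong exceptions lay on chromosomes IV and X. Chromosome IV 9512468 to 9512640, a combined region of 173 bp with a −log10 q of 3.43, is a member through a wide neighbour 265 bp away. On its other side it lies 329 bp from a replicate 1 region, 9510413 to 9512138, with 237, and 382 bp from the replicate 2 region at the same place, with 290. On chromosome X the wide combined region 14478055 to 14479093, with 132, lies 225 bp from a replicate 1 region with 197 and 277 bp from a replicate 2 region with 246. The combined list used here has no region at either strong position.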
